A study of Rattus norvegicus with 32 samples.

Results

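AMP-activated protein kinase (AMPK) is a complex of a catalytic α subunit, a scaffolding β subunit and a regulatory γ subunit. Its genes in the rat are Prkaa1 and Prkaa2 (α), Prkab1 and Prkab2 (β), and Prkag1, Prkag2 and Prkag3 (γ). Stk11 encodes LKB1, the kinase that phosphorylates the activation loop of the α subunit. The 8 genes were picked by symbol out of 34912 gene names on the array. A gene belonged to it when its symbol stood beside a probe in either annotation version of the files, which gave 13 probes out of 45598. The comparisons asked how the transcripts of this kinase differed between sham, septic and landiolol-treated hearts of each sex.

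Left ventricles were taken 20 h after surgery from male and female Wistar rats, with 1 rat per array and 32 arrays in all. In each sex there were 5 rats after sham surgery, 5 after cecal ligation and puncture (CLP), a surgical model of abdominal sepsis, and 6 after CLP with an infusion of the ultra-short-acting β1-adrenoceptor antagonist landiolol (CLP plus landiolol). All were young adult rats with no modified allele named, they received buprenorphine against pain and an infusion of similar volume without antibiotics, and in the CLP group this was saline. Landiolol was never given to sham rats, so its effect without sepsis was not analysed here. Every heart had also been imaged and perfused ex vivo before it was frozen, which limits all groups as a picture of the heart in the animal.

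AMPK senses the energy state of a cell. AMP and ADP bind the γ subunit in exchange for ATP, the α subunit is then phosphorylated by LKB1 or, in response to calcium, by CaMKK2, and the active kinase favours fatty acid oxidation and glucose uptake over protein and lipid synthesis. In cardiomyocytes the α2 isoform (Prkaa2) is the main catalytic subunit, γ1 and γ2 are the usual regulatory subunits, and γ3 (Prkag3) is best known from glycolytic skeletal muscle. The arrays measured transcripts only, and neither protein nor phosphorylation.

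Levels are given as log2 normalised intensity of a gene's brighter probe, where 1 unit is a 2-fold difference. Intensities of different probes cannot be set against each other, so levels were compared only between groups for 1 probe. Of the 13 probes, 12 were well above background on every array, and the dimmer Stk11 probe was not kept in either sex. The longest run of bases shared by probes of different members was 9 bases over 73 pairs of probes, each of 60 bases. The probes of Prkag2 and Stk11 that cross an intron are shown because they can only match spliced RNA over their full length. In the rn4 coordinates of the files the Prkag2 probe spans chr4:5644033-5649788 (plus strand) and the Stk11 probe spans chr7:11088136-11089977 (minus strand). The probe of Stk11 is its brighter one and that of Prkag2 its dimmer one.
Prkag2: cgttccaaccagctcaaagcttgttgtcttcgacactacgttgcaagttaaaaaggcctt
Stk11: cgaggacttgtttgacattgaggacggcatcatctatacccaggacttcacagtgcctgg

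The promoters are shown for the 3 members that passed a test in any comparison, which does not mean that the other members were unchanged. Each is the RefSeq window of 300 bases around a start site in build GRCr8, and all 8 members had an entry, with 2 entries for Prkag2. They lie at chr12:46248845-46249144 (plus strand) for Prkab1, chr5:125108275-125108574 (minus strand) for Prkaa2 and chr9:83753580-83753879 (minus strand) for Prkag3. Capitals mark a match to the ETS letters CCGGAAG.
Prkab1: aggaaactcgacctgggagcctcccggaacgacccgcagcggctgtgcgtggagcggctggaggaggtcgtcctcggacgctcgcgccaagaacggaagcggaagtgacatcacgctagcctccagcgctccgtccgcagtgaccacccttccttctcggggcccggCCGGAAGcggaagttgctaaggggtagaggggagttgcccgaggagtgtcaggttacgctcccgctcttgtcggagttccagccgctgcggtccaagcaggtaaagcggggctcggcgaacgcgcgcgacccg
Prkaa2: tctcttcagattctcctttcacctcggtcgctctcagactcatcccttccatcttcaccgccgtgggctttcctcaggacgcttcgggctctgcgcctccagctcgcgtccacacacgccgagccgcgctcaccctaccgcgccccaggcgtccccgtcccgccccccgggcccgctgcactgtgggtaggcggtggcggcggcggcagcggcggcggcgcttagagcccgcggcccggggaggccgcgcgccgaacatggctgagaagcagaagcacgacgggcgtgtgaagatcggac
Prkag3: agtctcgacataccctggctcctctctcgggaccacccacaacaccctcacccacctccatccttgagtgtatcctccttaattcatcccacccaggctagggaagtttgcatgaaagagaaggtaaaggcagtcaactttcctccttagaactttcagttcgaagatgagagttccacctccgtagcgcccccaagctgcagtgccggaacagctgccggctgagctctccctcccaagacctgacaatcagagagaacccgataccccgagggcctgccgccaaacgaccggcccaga

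The motifs searched, on both strands, were the ETS letters CCGGAAG, the E-box CACGTG and the core of the cAMP-response element, TGACG, and no 2 matches in a member's promoter overlapped. The ETS letters occurred in the promoters of Prkab1 and Prkag1 and in 8.75% of 33469 promoters of this length. The core element occurred in those of Prkab2 and Prkag1 and in 21.2% of all promoters, and the E-box in none of the members and in 6.42% of all. The share of G and C was 67.3% for Prkab1, 70.7% for Prkaa2 and 56.7% for Prkag3, against a median of 51.7% over all promoters.

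Between 34920 and 43155 spots per array were well above background, and 25866 probes in males and 25395 in females were kept for the tests. The 4 slides each held 1 sex, so differences in level between the sexes cannot be told apart from the slide, and each slide carried arrays of all 3 groups of its sex. In females all sham arrays lay in row 1 of a slide and all CLP plus landiolol arrays in row 2, while the CLP arrays lay in both. Treated and sham females thus shared no row, and their comparison cannot be told apart from the row except through the CLP arrays. Sample titles end in a code that can be read as a day, which the labels do not explain, and the groups covered different spans of it. All 6 cardiomyocyte markers were well above background on every array, which marks heart muscle and does not separate the left ventricle from other chambers. In whole tissue, fewer cells of a type and less RNA per cell cannot be told apart.

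In CLP vs sham, Prkaa2 and Prkab1 fell in males and Prkab1 fell in females. In CLP plus landiolol vs CLP, Prkag3 rose in males and Prkab1 rose in females. In CLP plus landiolol vs sham, Prkaa2 was lower in males and no member passed in females. Prkaa1, Prkab2, Prkag1, Prkag2 and Stk11 passed in no comparison. All tests were made with limma and Benjamini-Hochberg adjustment over all kept probes. The FDR level was 1% in comparisons with sham and 5% between the septic groups.

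**Figure D1:**
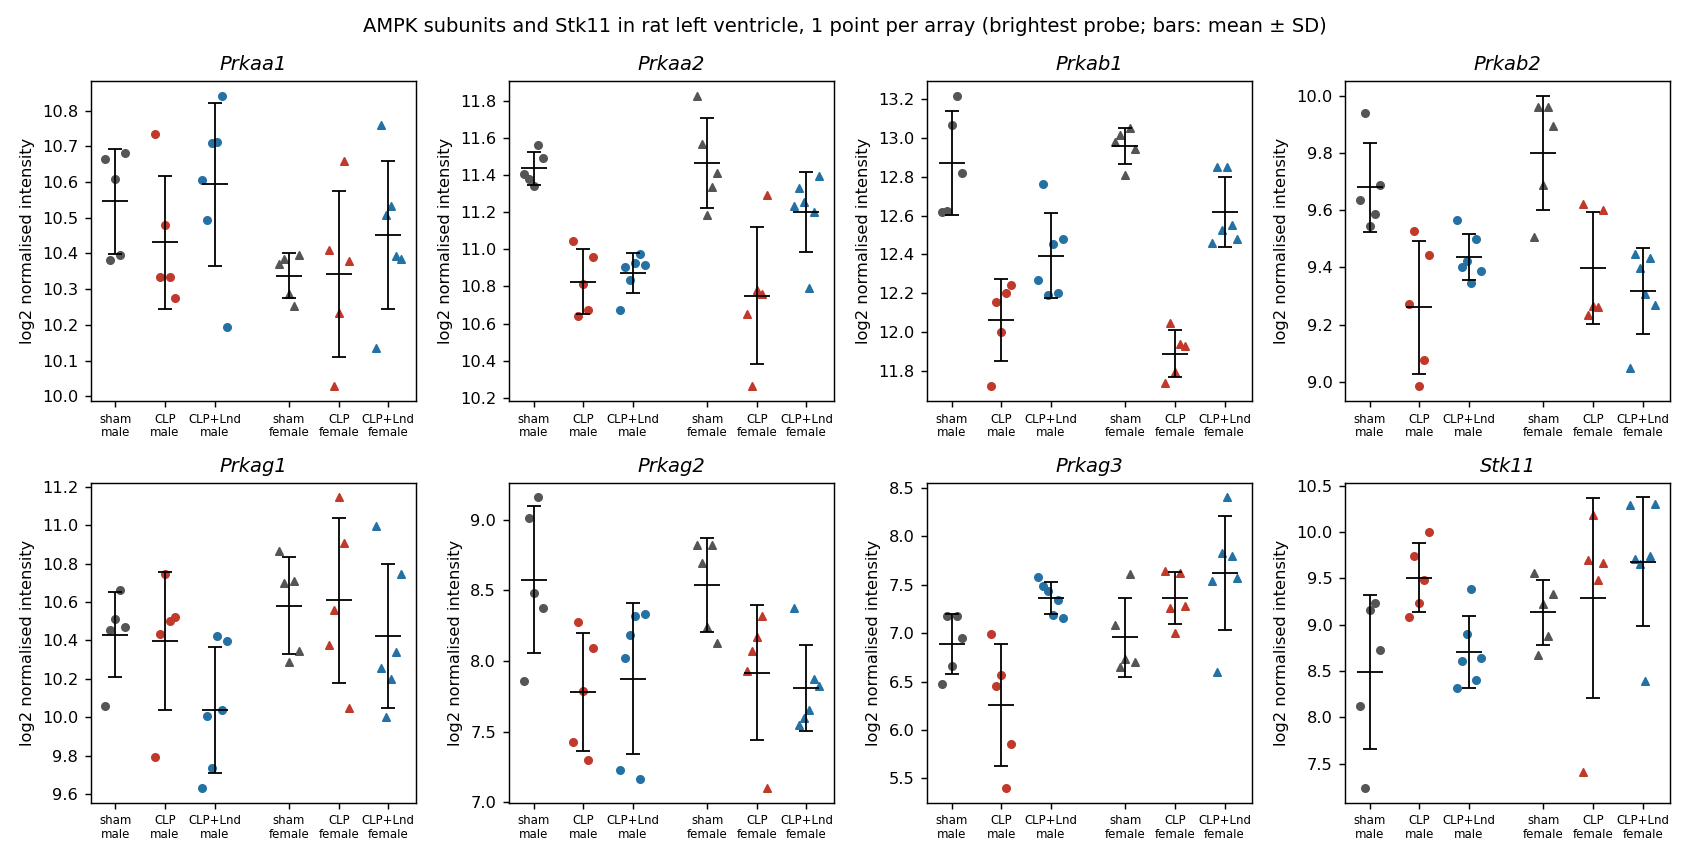
Log2 normalised intensity (vertical axis) of the brighter probe of each of the 8 genes by group (horizontal axis), with 1 point per array and bars for the mean ± SD of 5 or 6 arrays. The 5 female CLP arrays sit between 11.74 and 12.05 for Prkab1, below all female sham and CLP plus landiolol arrays, and the male CLP and CLP plus landiolol arrays sit below all male sham arrays for Prkaa2.

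The number of members that passed was 2 of 8 in males for CLP vs sham, where 8.22% of 19730 genes passed, and 1 of 8 in females, where 3.78% of 19465 genes passed. For CLP plus landiolol vs CLP it was 1 of 8 in males beside 1.62% of all genes, and 1 of 8 in females beside 0.0873%. For CLP plus landiolol vs sham it was 1 of 8 in males beside 4.39%, and 0 of 8 in females beside 5.49%. In that last comparison 4 of 8 members had an unadjusted p under 0.05 by limma, where 27.2% of all genes had one, and SAM called 1 member, Prkag2.

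The groups did not overlap for 3 of 8 members in CLP vs sham in males, beside 12.8% of all genes, and for 1 of 8 in females, beside 8.61%. The count was 1 of 8 in each of the other 4 comparisons. The shares of all genes there were 2.36% in males and 1.19% in females for CLP plus landiolol vs CLP, and 8.13% in males and 10.2% in females for CLP plus landiolol vs sham.

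By direction alone, 7 of 8 members were lower in CLP than in sham in males, with a median log2 difference of -0.51, and 4 of 8 in females, with a median of -0.20. The median of all genes was -0.0034 in males and -0.016 in females. In CLP plus landiolol vs CLP, 6 of 8 members were higher in males (median 0.13) and 5 of 8 in females (median 0.19), beside medians of all genes of 0.0030 and 0.023. Against sham, the CLP plus landiolol group had medians of -0.32 in males and -0.21 in females, with 5 of 8 members lower in each sex.

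**Figure D2:**
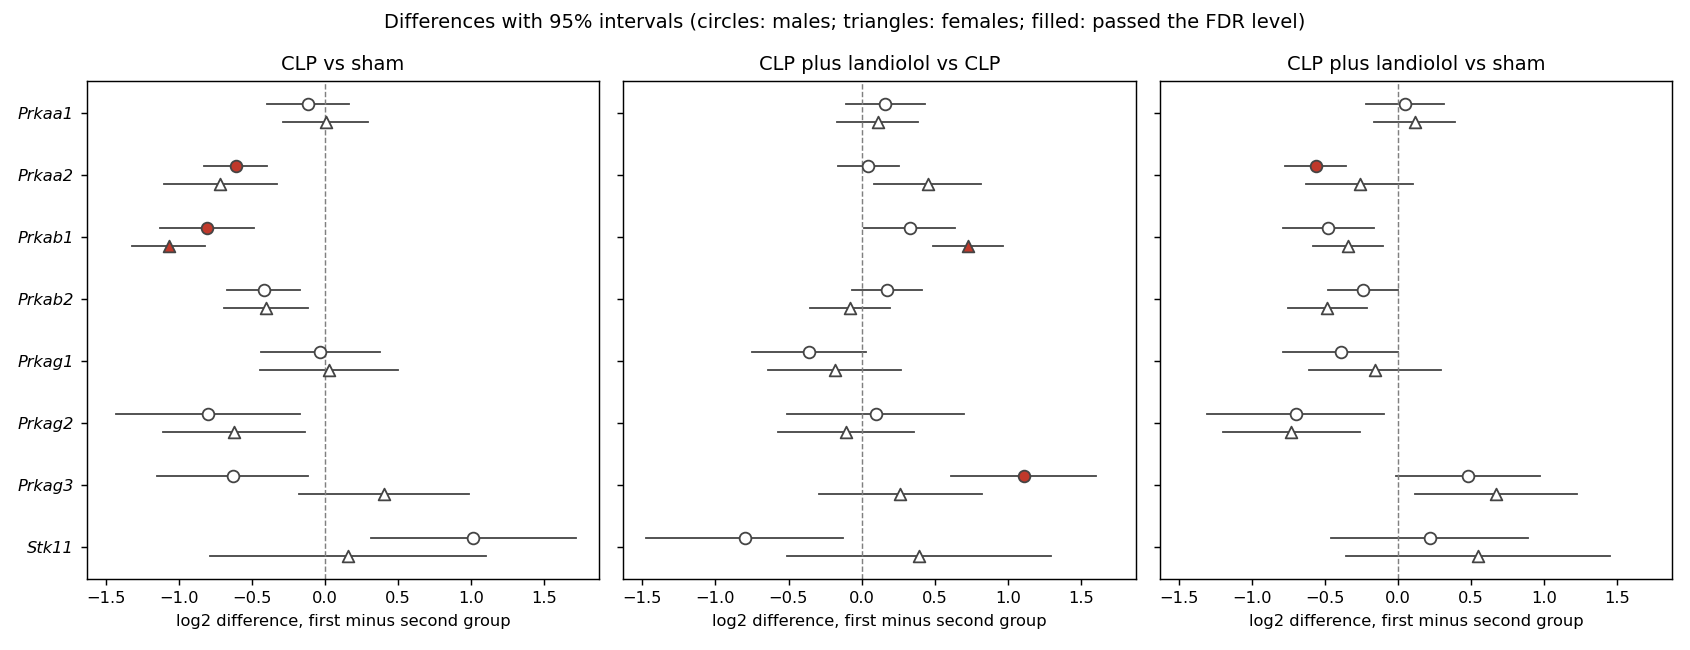
Log2 difference between groups (horizontal axis, first minus second group, with 95% intervals from limma) for each gene (vertical axis) in the 3 comparisons, circles for males, triangles for females, and filled symbols where the FDR level was passed. The filled symbols are Prkaa2 and Prkab1 on the left, Prkag3 and Prkab1 in the middle, and Prkaa2 on the right.

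Of the catalytic subunits, Prkaa2 passed in males and Prkaa1 in no comparison. Prkaa2, which encodes α2, was measured at chr5:126003579-126003638 (minus strand, rn4) by its brighter probe. In males the sham arrays read 11.41, 11.38, 11.34, 11.56 and 11.49, and the CLP arrays 11.04, 10.64, 10.81, 10.67 and 10.96. The 6 CLP plus landiolol arrays ran from 10.67 to 10.98 with a median of 10.91. All septic male arrays, treated or not, were below all sham arrays. CLP males were 1.53-fold lower than sham males (log2 difference -0.61, SE 0.10, adjusted p = 0.000885 by limma). The CLP plus landiolol males were 1.48-fold lower than sham (log2 difference -0.56, SE 0.098, adjusted p = 0.00189) and differed from CLP by 0.046 (95% interval -0.16 to 0.25, adjusted p = 0.842).

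In females the Prkaa2 sham arrays read 11.83, 11.57, 11.19, 11.33 and 11.41, and the CLP arrays 10.65, 10.26, 10.78, 10.76 and 11.29. The CLP plus landiolol arrays ran from 10.79 to 11.40 with a median of 11.24. Of the CLP arrays, only replicate 5, at 11.29, reached the range of sham. The log2 difference was -0.72 (SE 0.18, adjusted p = 0.0208 by limma), which missed the FDR level of 1%. With 1 array left out it ran from -0.85 to -0.59, at adjusted p values from 0.00517 to 0.0579. It passed in 1 of these 16 fits, the one without replicate 5 of the CLP group (-0.85, adjusted p = 0.00517). CLP plus landiolol vs CLP gave 0.45 (SE 0.17, adjusted p = 0.407), and CLP plus landiolol vs sham gave -0.26 (SE 0.17, adjusted p = 0.363). With a term for the slide row these became 0.18 and -0.73 (adjusted p = 1 and 0.414). Treated and sham females shared no row, so their difference cannot be told apart from the row except through the CLP arrays. The order of means was sham, CLP plus landiolol, CLP in both sexes, and the only neighbours in it that differed past the test were sham and CLP plus landiolol in males.

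A second, dimmer Prkaa2 probe, at chr5:126007911-126007970, varied more between arrays. It gave -0.50 for CLP vs sham in males (SE 0.39, adjusted p = 0.443) and -0.77 in females (SE 0.28, adjusted p = 0.101). With the mean of both probes the male calls were lost, at -0.56 (adjusted p = 0.0791) for CLP vs sham and -0.68 (adjusted p = 0.0384) for CLP plus landiolol vs sham. Within the 2 male slides the brighter probe gave -0.56 and -0.65 for CLP vs sham, and -0.59 and -0.53 for CLP plus landiolol vs sham. With only arrays inside the span of title codes that both groups share (3 treated and 4 sham), the latter was -0.48 and missed the test (adjusted p = 0.12).

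Prkaa1 encodes α1, which most cell types of the heart express. Its group means ranged from 10.43 to 10.59 in males, and those of females from 10.34 to 10.45. CLP vs sham gave -0.12 (95% interval -0.40 to 0.17) in males and 0.0042 (95% interval -0.29 to 0.29) in females, and no comparison had an adjusted p under 0.567 for this probe. Its dimmer probe was higher in CLP than in sham, by 0.25 in males and 0.14 in females, neither past the test.

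The β subunits hold the complex together and carry a module that binds glycogen. Prkab1, which encodes β1, was measured by 1 probe printed on 2 spots, at chr12:41851182-41851241 (plus strand, rn4). In males the sham arrays read 12.62, 12.62, 13.07, 13.22 and 12.82, and the CLP arrays 11.72, 12.15, 12.00, 12.20 and 12.24. The CLP plus landiolol arrays ran from 12.19 to 12.76 with a median of 12.36. Sham and CLP did not overlap, and the treated arrays lay across the gap between them. CLP was 1.75-fold lower than sham (log2 difference -0.81, SE 0.15, adjusted p = 0.00204 by limma). CLP plus landiolol vs CLP gave 0.33 (SE 0.15, adjusted p = 0.306) and CLP plus landiolol vs sham gave -0.48 (SE 0.15, adjusted p = 0.0501), neither past the test.

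In females the Prkab1 sham arrays read 12.98, 13.01, 12.81, 13.05 and 12.94, and the CLP arrays 11.74, 12.05, 11.80, 11.94 and 11.93. The CLP plus landiolol arrays ran from 12.46 to 12.85 with a median of 12.54. The CLP group stood apart from both other groups, and only the treated and sham groups overlapped. CLP was 2.10-fold lower than sham (log2 difference -1.07, SE 0.12, adjusted p = 7.48e-05 by limma). CLP plus landiolol was 1.66-fold higher than CLP (log2 difference 0.73, SE 0.11, adjusted p = 0.0323), higher in 30 of 30 pairs of arrays. Against sham the treated females gave -0.34 (SE 0.11, adjusted p = 0.0592). These groups shared no slide row, and with a row term the value was -0.41 (adjusted p = 0.567 by limma). The order of means was sham, CLP plus landiolol, CLP in both sexes. Sham and CLP plus landiolol did not differ past the test in either sex, nor did CLP plus landiolol and CLP in males.

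The fall of Prkab1 with CLP held on each slide, at -0.66 and -0.81 in males and -0.92 and -1.21 in females. It kept its call without any single array of its sex, at adjusted p values up to 0.00684 in males and 0.000378 in females. Within the shared span of title codes it was -0.75 in males, just short of the test at an adjusted p of 0.0102 (3 CLP and 5 sham arrays), and -1.01 in females (adjusted p = 0.0048). The rise in treated females was 0.52 and 0.90 on the 2 slides and 0.69 among the 2 CLP and 6 treated arrays of row 2. Its call was less steady. It missed the FDR level with a term for the slide row (adjusted p = 0.26), with scaling to the 75th percentile (0.0672), with only the 2 groups in the fit (0.121) and within the shared span of title codes (0.71, adjusted p = 0.0554). It also missed it when any of CLP replicates 1, 2, 3 or 4, treated replicates 1, 2, 4, 5 or 6, or sham replicate 3 was left out, at adjusted p values from 0.0507 to 0.112 and log2 differences from 0.68 to 0.77.

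Prkab2 encodes β2, the form that dominates in striated muscle. In males its sham arrays ran from 9.55 to 9.94 and its CLP arrays from 8.98 to 9.53, without overlap, and the log2 difference was -0.42 (SE 0.12, adjusted p = 0.0238 by limma). In females CLP vs sham gave -0.40 (SE 0.13, adjusted p = 0.0735). CLP plus landiolol vs sham gave -0.24 in males (adjusted p = 0.2) and -0.48 in females (adjusted p = 0.0218), where the treated arrays, 9.05 to 9.45, lay below all sham arrays, 9.51 to 9.96. None of these passed the level of 1%, though the last did with the authors' table (-0.49, adjusted p = 0.00779). With a term for the slide row that female difference was -0.54, with an adjusted p of 0.489 by limma. CLP plus landiolol vs CLP gave 0.18 in males (95% interval -0.064 to 0.42) and -0.080 in females (95% interval -0.35 to 0.19). In both sexes sham had the highest mean. The dimmer Prkab2 probe gave -0.31 in males and -0.69 in females for CLP vs sham.

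The γ subunits bind the adenine nucleotides. Prkag1 encodes γ1, the widespread form. Its means were 10.43 in sham, 10.40 in CLP and 10.04 in CLP plus landiolol males, and 10.58, 10.61 and 10.42 in females. CLP vs sham gave -0.032 (95% interval -0.44 to 0.38) in males and 0.027 (95% interval -0.45 to 0.50) in females. The lowest adjusted p in its 6 comparisons was 0.203, for CLP plus landiolol vs sham in males (log2 difference -0.39, SE 0.18).

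Prkag2 encodes γ2, whose mutations in people cause a cardiomyopathy with glycogen storage and pre-excitation. Its brighter probe, at chr4:5666961-5667020 (plus strand, rn4), gave -0.80 for CLP vs sham in males (SE 0.30, adjusted p = 0.0818 by limma) and -0.62 in females (SE 0.23, adjusted p = 0.107). The dimmer probe, which crosses an intron and is printed above, read 7.42, 6.96, 6.79, 7.18 and 7.46 in male sham and 6.55, 6.47, 5.97, 6.14 and 6.39 in male CLP. By that probe all CLP males were below all sham males, with a log2 difference of -0.86 (SE 0.21, adjusted p = 0.0118), and the females gave -0.60 (SE 0.20, adjusted p = 0.0738). The mean of both probes passed in males, at -0.83 (adjusted p = 0.00858), and not in females, at -0.61 (adjusted p = 0.0307).

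In both landiolol groups the Prkag2 mean was below that of sham, without passing the level of 1%. Against sham the brighter probe gave -0.70 in males (SE 0.28, adjusted p = 0.137) and -0.73 in females (SE 0.22, adjusted p = 0.0403), and against CLP it gave 0.097 in males (95% interval -0.51 to 0.70) and -0.11 in females (95% interval -0.58 to 0.36). By the dimmer probe the treated females, like the CLP males, did not overlap with sham, at -0.65 (adjusted p = 0.036). With a term for the slide row the brighter probe gave -0.38 against sham in females (adjusted p = 0.82).

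**Figure D3:**
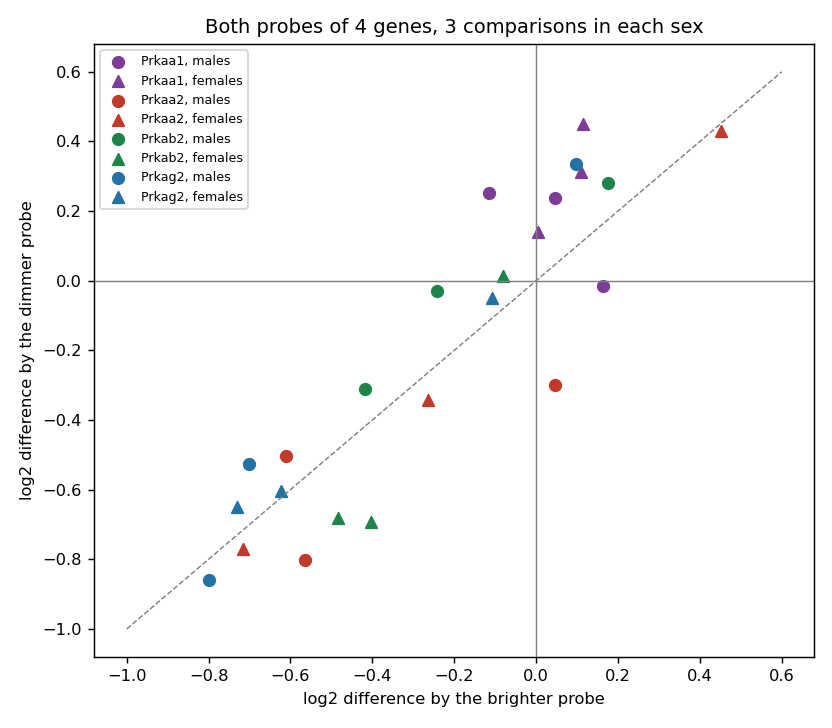
Log2 difference by the dimmer probe (vertical axis) against that by the brighter probe (horizontal axis) for the 4 genes with 2 kept probes, with 1 symbol per comparison, circles for males and triangles for females, and a dashed line where both are equal. Prkag2, Prkab2 and Prkaa2 lie at negative values by both probes in CLP vs sham in both sexes, and Prkaa1 lies near 0 by the brighter probe.

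Prkag3 encodes γ3, and its probe at chr9:74069989-74070048 (minus strand, rn4) was dim in these hearts but well above background on every array. In males the sham arrays read 6.48, 7.17, 6.67, 7.17 and 6.95, and the CLP arrays 6.997, 6.45, 6.57, 5.40 and 5.86. The CLP plus landiolol arrays ran from 7.16 to 7.58 with a median of 7.39. The treated arrays lay above every CLP array, and the spread of the CLP arrays was the widest of the 3 male groups. CLP plus landiolol was 2.16-fold higher than CLP (log2 difference 1.11, SE 0.23, adjusted p = 0.0274 by limma). CLP vs sham gave -0.63 (SE 0.24, adjusted p = 0.0916), and CLP plus landiolol vs sham gave 0.48 (SE 0.23, adjusted p = 0.225). The order of means in males was CLP plus landiolol, sham, CLP, and neighbours in it did not differ past the test.

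The rise of Prkag3 was 0.82 and 1.60 on the 2 male slides, and 1.22 and 1.02 in the 2 rows. With normexp background correction it was 0.67 and still passed. It missed the level with no filter on dim probes (adjusted p = 0.0521) and with only the 2 groups in the fit (0.0715). The same happened without replicate 4 or 5 of the CLP group, at 0.89 and 1.004, and without replicate 1, 2 or 3 of the CLP plus landiolol group, at 1.07, 1.08 and 1.10, with adjusted p values from 0.0563 to 0.0699. Replicates 4 and 5 of the CLP group, the 2 lowest arrays, have title codes that precede those of all treated males. Within the span that both groups share, 4 treated arrays (7.16 to 7.43) still lay above 3 CLP arrays (6.45 to 6.997), but the log2 difference was 0.61 with an adjusted p of 0.461. With the day of the code as a term it was 0.92 (adjusted p = 0.126).

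In females Prkag3 read 7.08, 6.65, 6.74, 7.61 and 6.70 in sham and 7.64, 7.25, 7.002, 7.62 and 7.28 in CLP, and the treated arrays ran from 6.5997 to 8.40 with a median of 7.69. CLP vs sham gave 0.40 (SE 0.27, adjusted p = 0.419 by limma), CLP plus landiolol vs CLP gave 0.27 (SE 0.26, adjusted p = 0.819), and CLP plus landiolol vs sham gave 0.67 (SE 0.26, adjusted p = 0.109). Treated and sham females shared no slide row, and with a row term their difference was 0.52 (adjusted p = 0.797 by limma). The difference of treated females from CLP was 0.11 without treated replicate 4 and 0.47 without treated replicate 2. The order of means in females was CLP plus landiolol, CLP, sham, with overlap between all groups.

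Stk11, the upstream kinase, reached the largest SDs of the 8 genes, 0.83 in male sham and 1.08 in female CLP. Its brighter probe read 8.12, 7.24, 9.16, 9.23 and 8.72 in male sham, 9.08, 9.74, 9.23, 9.48 and 10.004 in male CLP, and 8.32 to 9.39 with a median of 8.62 in the treated males. CLP males were above sham males in 23 of 25 pairs of arrays. The log2 difference was 1.02 (SE 0.33, adjusted p = 0.0477 by limma), which did not pass the level of 1%. CLP plus landiolol vs CLP gave -0.80 (SE 0.32, adjusted p = 0.246) and CLP plus landiolol vs sham gave 0.21 (SE 0.32, adjusted p = 0.721).

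In female sham Stk11 read 9.55, 8.67, 9.22, 8.88 and 9.33, and in female CLP 7.41, 9.70, 10.18, 9.48 and 9.66. The treated females ran from 8.39 to 10.30 with a median of 9.72. Replicate 1 of the CLP group was thus far below the other 4 arrays of its group. CLP vs sham gave 0.16 (95% interval -0.79 to 1.10), CLP plus landiolol vs CLP 0.39 (95% interval -0.51 to 1.29) and CLP plus landiolol vs sham 0.55 (95% interval -0.35 to 1.45). With a term for the slide row the last 2 were 0.11 and 0.075. The second Stk11 probe, at chr7:11087105-11087164, was too dim to be tested, so these values rest on 1 probe.

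The difference between the sexes was tested on the 32 arrays normalised together, in probes kept in both sexes, at an FDR of 5%. No member passed in CLP vs sham, where 0% of 18992 genes passed, or in CLP plus landiolol vs CLP, again beside 0% of all genes. An unadjusted p under 0.05 was seen for 1 of 8 members in the first, beside 3.5% of all genes, and for 4 of 8 in the second, beside 4.83%. For CLP vs sham this was Prkag3, whose change in males minus that in females was -1.04 (SE 0.37, adjusted p = 1 by limma). For CLP plus landiolol vs CLP the difference was 0.84 for Prkag3 (SE 0.36), -1.19 for Stk11 (SE 0.55), -0.40 for Prkab1 (SE 0.18) and -0.41 for Prkaa2 (SE 0.19), each with an adjusted p of 0.972 by limma. So the calls made in 1 sex and not in the other were not shown to differ between the sexes.

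Because α, β and γ subunits come in alternative forms, the log2 difference between 2 forms was taken within each array, with the sham mean of the sex set to 0. These values share their arrays with the comparisons above and are given as a description. A shift says only that the change of 1 form differed from that of the other, which may not have changed. Prkaa2 minus Prkaa1 shifted to -0.50 ± 0.16 (SD, n = 5) in CLP males and -0.61 ± 0.25 (SD, n = 6) in treated males, from a spread of ± 0.19 in sham. In females it was -0.72 ± 0.33 (SD, n = 5) in CLP and -0.38 ± 0.31 (SD, n = 6) after landiolol. Prkab1 minus Prkab2 was -0.39 ± 0.28 in CLP males, within the sham spread of ± 0.39, and -0.67 ± 0.28 in CLP females. After landiolol it was -0.23 ± 0.27 in males, and in females 0.14 ± 0.17, with every treated female array between -0.037 and 0.38. In treated females the mean of each form was below sham, by -0.34 for Prkab1 and -0.48 for Prkab2, neither past the test. A value near 0 thus does not place either form at the sham level. Treated and sham females shared no slide row, which bears on every treated female value in this paragraph. Prkag2 minus Prkag1 was -0.77 ± 0.44 in CLP males and -0.65 ± 0.25 in CLP females, and -0.31 ± 0.44 and -0.57 ± 0.19 in the treated groups.

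**Figure D4:**
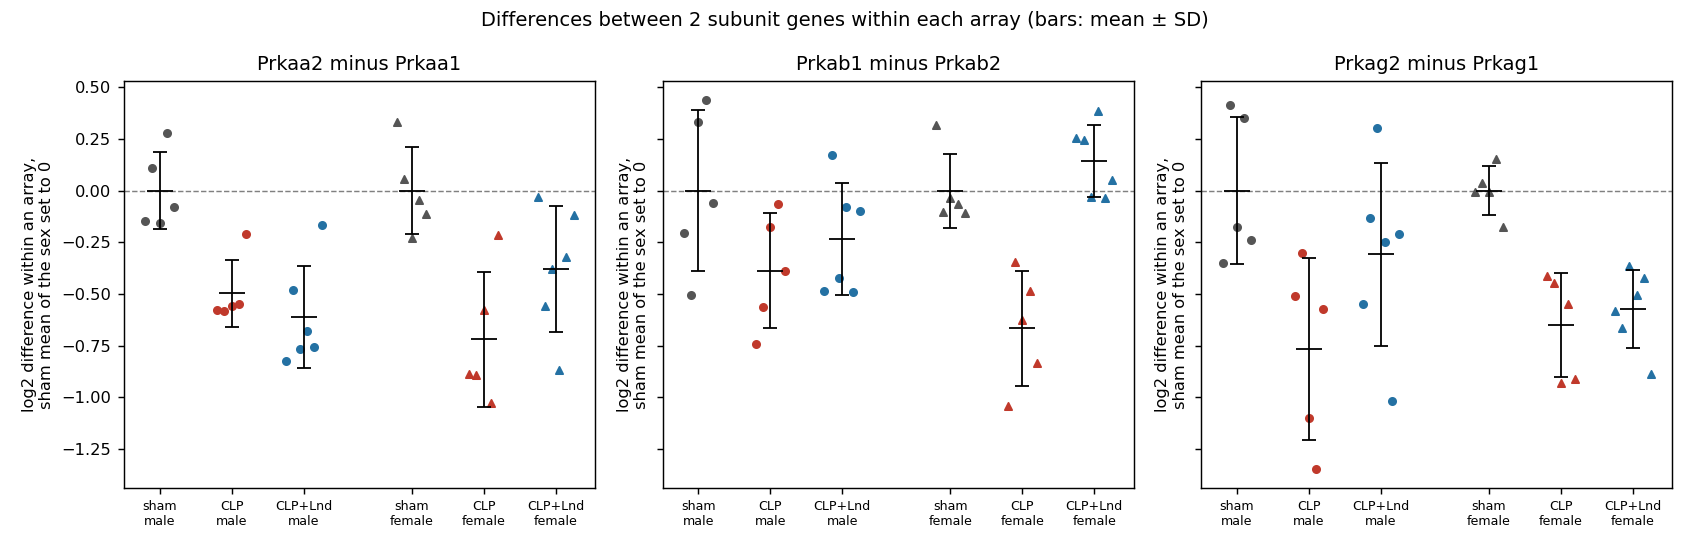
Log2 difference between 2 subunit genes within each array (vertical axis, sham mean of the sex set to 0) by group (horizontal axis), with 1 point per array and bars for the mean ± SD. The CLP females lie between -1.04 and -0.35 for Prkab1 minus Prkab2, and the treated females between -0.037 and 0.38.

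Other genes of the pathway were taken from lists by function. Of 7 partners of LKB1 and other upstream kinases, 6 were measured well enough to test, and none passed in any of the 6 comparisons. Camkk1 was the gene not kept. Of 12 AMPK-related kinases that LKB1 also activates, 10 were tested in males and 9 in females, and none passed. The median log2 difference of the upstream list for CLP vs sham was 0.097 in males and -0.0068 in females, and that of the related kinases -0.059 and 0.047.

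Of 24 AMPK substrates and effectors, all 24 were tested, and 1 passed in each sex for CLP vs sham, with none in the other comparisons. That share is below the 8.22% of all genes in males and near the 3.78% in females. Gys1, the muscle glycogen synthase that AMPK inhibits, fell in males (log2 difference -0.59, SE 0.11, adjusted p = 0.00245 by limma) and gave -0.44 in females (adjusted p = 0.122). Ppargc1a, the coactivator PGC-1α that drives mitochondrial biogenesis, fell in females (log2 difference -1.54, SE 0.28, adjusted p = 0.00304) and gave -1.03 in males (SE 0.47, adjusted p = 0.163). The median of the list was 0.035 in males and -0.0050 in females.

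Of 10 genes of the adenylate balance, which sets the AMP and ADP that AMPK senses, all 10 were tested. In CLP vs sham 2 passed in males, beside 8.22% of all genes, and 0 in females, beside 3.78%. Ampd3, an AMP deaminase, rose in CLP males (log2 difference 1.30, SE 0.23, adjusted p = 0.00127 by limma), and gave 1.13 in CLP females (SE 0.35, adjusted p = 0.0561). In CLP plus landiolol vs sham it rose in both sexes, with log2 differences of 1.65 in males (adjusted p = 0.000245) and 2.18 in females (adjusted p = 0.000686). Ak1, an adenylate kinase that forms AMP from ADP, fell in CLP males (log2 difference -0.83, SE 0.16, adjusted p = 0.00199), and gave -0.94 in CLP females (adjusted p = 0.0112). In CLP plus landiolol vs sham it fell in both sexes, with log2 differences of -0.88 in males (adjusted p = 0.00167) and -1.37 in females (adjusted p = 0.000532). In this comparison 1 of 10 genes rose and 1 fell in each sex. Of all genes, 4.39% passed in males and 5.49% in females. Treated and sham females shared no slide row, and no row term was fitted for Ampd3 and Ak1. Their female values in this comparison thus cannot be told apart from the row. No gene of this list passed in CLP plus landiolol vs CLP. The median of the list for CLP vs sham was -0.054 in males and -0.055 in females.

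Markers of cell types were read beside these results. No cardiomyocyte marker of 6 passed in any comparison, and the sum of their log2 levels reached 106.7 in male sham, and ran from 104.7 to 106.0 in male CLP and from 104.1 to 106.6 in treated males. In females it ran from 106.1 to 107.5 in sham and from 105.3 to 106.8 in CLP, and reached 107.1 in the treated group. None of 4 endothelial markers passed. Of 4 fibroblast markers, Col1a1 and Col3a1 fell in CLP males, by log2 differences of -2.11 and -2.05. Dcn lay the other way, at 0.87 in males (adjusted p = 0.0467) and 0.77 in females (adjusted p = 0.0752), and Pdgfra gave -0.40 and -0.20, none of them past the test. The sum of the list, which the collagens weigh on, ran from 52.69 to 55.39 in male sham, 47.92 to 51.94 in male CLP and 50.05 to 52.97 in treated males. In females no fibroblast marker passed, and the sum ran from 50.73 to 52.37 in sham, 47.28 to 51.78 in CLP and 48.73 to 52.44 in treated rats.

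Of 4 macrophage and monocyte markers, Cd68 and Lyz2 rose in CLP and in CLP plus landiolol against sham in both sexes. The other markers, Cd163 and Csf1r, did not pass in these comparisons. For CLP vs sham the median of the list was 0.56 in males and 0.60 in females. The sum of the list ran from 40.15 to 41.49 in male sham, 42.17 to 44.89 in male CLP and 40.51 to 44.17 in treated males. In females it ran from 40.05 to 41.44, from 41.36 to 43.81 and from 42.9 to 44.55. Of 4 neutrophil markers, S100a8 and S100a9 were tested, and Cxcr2 and Mmp8 were not kept. Against sham both rose in CLP and in treated males and in treated females, and in CLP females S100a8 rose and S100a9 gave 1.95 (adjusted p = 0.0329). The sum of all 4 was at most 12 in male sham and 15.91 in female sham, and at least 16.52 in every septic array. No marker of these immune lists passed in CLP plus landiolol vs CLP. The part of these cells, and of fibroblasts, in the levels of the AMPK genes was not tested. Of 4 skeletal muscle markers, which bear on Prkag3, Myh4 was not kept and none of the other 3 passed in CLP plus landiolol vs CLP in males. In that comparison Mylpf gave 0.50 (SE 0.19), Tnnt3 0.38 (SE 0.23) and Actn3 -0.55 (SE 0.32), so they did not lie on 1 side. The sum of all 4, Myh4 included, ran from 21.09 to 23.27 in CLP males and from 21.56 to 23.39 in treated males, and the part of skeletal muscle RNA in the Prkag3 level was not tested. In CLP vs sham, Actn3 rose in both sexes, Tnnt3 fell in males, and no other marker of this list passed. The median log2 difference of the 3 tested markers was -0.26 in males and -0.39 in females, opposite in direction to Actn3.

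The genes most alike in pattern to the 3 members that passed a test were found by Spearman correlation over the 16 male and, separately, the 16 female arrays, ranked by the lower of both values among 12853 genes. The points share the groups, so these values describe the pattern and carry no test. Nearest to Prkab1 were Myoz1 (0.915 in males, 0.85 in females), Hpdl (0.871 and 0.85) and Hccs (0.844 and 0.847). Hccs, which attaches haem to cytochrome c, gave -1.12 in CLP males and -1.36 in CLP females on the log2 scale, and Myoz1, a protein of the Z-disc, gave -1.37 and -0.93. Nearest to Prkaa2 were Ice2 (0.806 and 0.832), Ppm1l (0.774 and 0.803) and Cdc34 (0.809 and 0.768). Nearest to Prkag3 were Epor (0.8 and 0.779), Cers1 (0.653 and 0.665) and Tox3 (0.644 and 0.741). In CLP plus landiolol vs CLP in males Epor gave 1.06 (adjusted p = 0.0607 by limma). There Cers1 gave 0.49 and Tox3 0.60 (adjusted p = 0.228 and 0.056), so none of these passed the test.

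**Figure D5:**
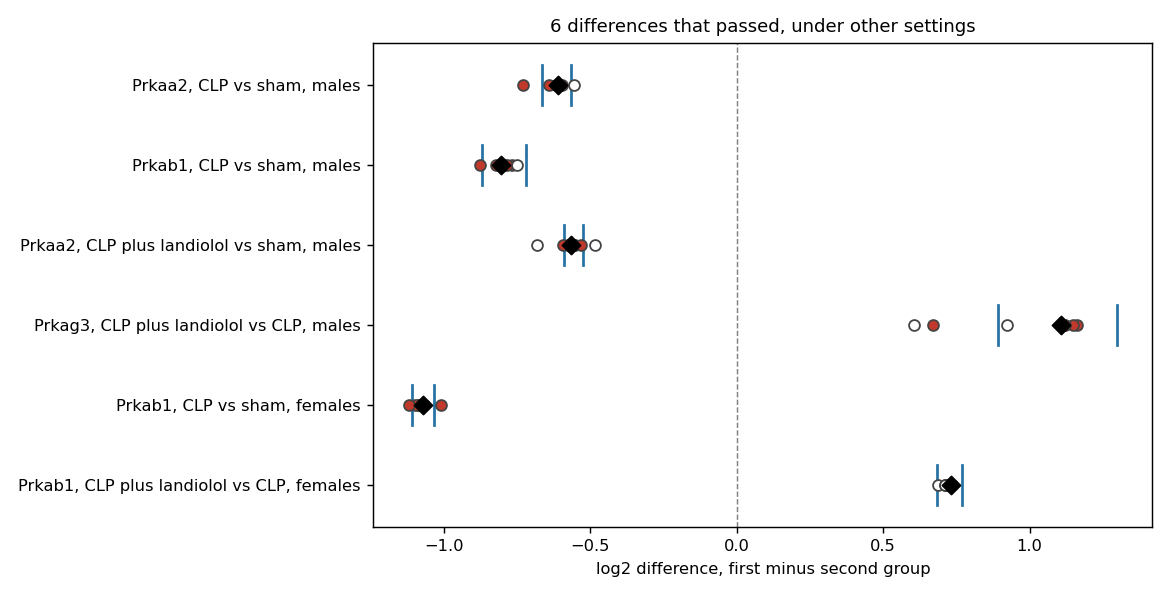
Log2 difference (horizontal axis) of the 6 member differences that passed a test (vertical axis), with a diamond for the value reported, circles for the alternatives (filled where the FDR level was passed) and blue ticks for the lowest and highest value when 1 array was left out. All values of a row stay on 1 side of 0, and the lowest Prkag3 values are 0.61 within the shared span of title codes and 0.67 with normexp background correction.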

How the data were processed

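The members and the gene lists were chosen with earlier results of these data known. The authors deposited 1-colour scanner output made with Agilent Feature Extraction 10.5, with the intensity of each spot after background subtraction. They also deposited a table of log2 values, with column medians of 8.2 to 8.39 and Spearman correlations of at least 0.995 with the scanner values, in which an offset before the log2 is not given in the sources used here. Coordinates are those of build rn4 in the files, and promoters those of RefSeq (GRCr8). Spots marked as outliers were left out, log2 processed intensities were averaged per probe and quantile-normalised within a sex, and a probe entered the tests if 80% or more of the arrays of any group had it well above background. The 16 arrays of a sex were fitted with limma 3.58.1 under R 4.3.3. A gene was read by its brightest probe over the 32 arrays. All members, each list gene that passed, and the 3 genes nearest in pattern to each called member were named. Scripts were tested on simulated data. The number of arrays limits the precision. The p-values weigh a difference against the spread between arrays of 1 rat each, in which rats and technical steps cannot be told apart. Alternatives included SAM, the method of the study, here with 100 permutations and thus fewer than the study used. The 2 alternatives on the day code in the titles were chosen after seeing the data.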

Additional observations from a re-analysis of the deposited data

Results flagged for a closer look

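Among 48 combinations of a member and a group, 3 held an array whose gap to its nearest neighbour took up more of the group's range than Dixon's 95% value allows, and chance alone gives about 1 in 20. In the female CLP group the lowest Stk11 array (replicate 1) read 7.41, with the next at 9.48 and the highest at 10.18. In the female CLP plus landiolol group the lowest Stk11 array (replicate 4) read 8.39, with the next at 9.65 and the highest at 10.30. The same array was the lowest for Prkaa2, at 10.79, with the next at 11.20 and the highest at 11.40.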

How the results depend on the processing

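The counts of members that passed moved with the FDR level, the set of arrays and the probe rule. With exchanged FDR levels they were 4 (CLP vs sham, males), 2 (CLP vs sham, females) and 2 (CLP plus landiolol vs sham, females), and 0 in CLP plus landiolol vs CLP in both sexes. In CLP plus landiolol vs CLP the count was 0 in females with 75th-percentile scaling, with a slide row term and with only the 2 groups compared, and 0 in males with no filter and with only the 2 groups. It was 0 for CLP plus landiolol vs sham in males with the mean of all probes of a gene, and 1 in females by SAM (Prkag2) and by the authors' table (Prkab2). A pair of alternatives on the day read from the title code was added after the data were seen. With that day in the fit the count was 0 in males between the septic groups. Within the shared span of title codes, with fewer arrays, it was 0 between the septic groups in both sexes, 0 for CLP plus landiolol vs sham in males and 1 for CLP vs sham in males. With 1 array left out it ran from 0 to 1 in CLP plus landiolol vs CLP in each sex and from 1 to 2 in CLP vs sham in females (2 without replicate 5 of the CLP group). The other 91 counts were as reported or within 1.5 times. No member passed the test of a difference between the sexes under any alternative.

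No difference that passed changed sign. Among differences that did not pass, signs turned as follows on the log2 scale. Prkaa1 in CLP vs sham in females became -0.0064 with 75th-percentile scaling, -0.028 with normexp, -0.010 with the slide as a term, -0.11 with the row as a term, -0.011 with the authors' table, and ran from -0.075 to 0.083 with 1 array left out. With the row as a term in females, Prkaa1 became -0.067 (CLP plus landiolol vs CLP) and -0.18 (vs sham), Prkag1 0.059 (vs sham), Prkag2 0.10 (vs CLP) and Stk11 -0.032 (CLP vs sham). With the mean of all probes, Prkaa1 became 0.068 and Prkaa2 -0.13 (in males, CLP vs sham and CLP plus landiolol vs CLP), and between the sexes Prkaa1 became -0.14 and Prkab2 0.19. Prkag1 became 0.035 in CLP vs sham in males with the slide as a term. With 1 array left out, other values ran across 0: in males, Prkaa1 from -0.0023 to 0.13 and Stk11 from -0.099 to 0.40 (CLP plus landiolol vs sham), Prkaa2 from -0.00015 to 0.10 and Prkag2 from -0.023 to 0.24 (CLP plus landiolol vs CLP), and Prkag1 from -0.12 to 0.12 (CLP vs sham). In females, Prkag1 ran from -0.11 to 0.17 and Stk11 from -0.066 to 0.62 (CLP vs sham), and Stk11 from -0.079 to 0.65 (CLP plus landiolol vs CLP). Between the sexes, Prkaa1 ran from -0.036 to 0.13 (CLP plus landiolol vs CLP), and for CLP vs sham Prkaa2 from -0.0080 to 0.25, Prkab2 from -0.066 to 0.075 and Prkag1 from -0.20 to 0.090. With the day of the title code as a term, Prkaa1 became -0.0028 (CLP plus landiolol vs sham, males) and Prkag1 -0.012 (CLP vs sham, females). Within the shared span Prkaa1 became -0.022 and Prkag1 0.13 (CLP vs sham in females and in males), and Stk11 -0.073 (CLP plus landiolol vs CLP, females). The cause was not tested. No paired analysis was possible because the labels give no replicate numbers that link rats of different groups.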
